A study of Sus scrofa with 22 samples.

Results

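Proteins that have been proposed to carry the action of resveratrol were followed at the level of their transcripts in blood mononuclear cells of mini pigs: NAMPT, the AMPK subunit PRKAB1, the mitochondrial factor TFAM and the sirtuins. Every probe set annotated to exactly 1 of the symbols NAMPT, PRKAB1, TFAM and SIRT1 to SIRT7 was taken. This gave 10 of the 23999 non-control probe sets on the array, for 7 of the 6765 genes with a symbol of their own. NAMPT, PRKAB1, SIRT2, SIRT3, SIRT5 and SIRT6 had 1 probe set each and TFAM had 4, while SIRT1, SIRT4 and SIRT7 were not analysed here. All 10 probe sets passed the filter on dim signals, which asked for a log2 intensity above 5 in at least 2 arrays.

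NAMPT makes nicotinamide mononucleotide from nicotinamide and is the rate-limiting enzyme of the NAD salvage pathway. Sirtuins are deacylases that consume NAD, so their activity depends on its supply. AMPK is a kinase made of a catalytic alpha, a scaffolding beta and a regulatory gamma subunit that is switched on when the cell's ATP runs low, and PRKAB1 encodes the beta 1 subunit. TFAM packages mitochondrial DNA and starts its transcription. NAMPT is also known as a secreted, cytokine-like protein that activated monocytes and neutrophils make.

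The study measured 4 conditions on Affymetrix arrays for pig transcripts, with 1 array for each sample of blood. The high-fat with resveratrol group (2 females, 2 males) had eaten chow with 20% beef tallow plus a daily resveratrol dose of 8 mg per kg up to 9 months. The high-fat group (2 females, 2 males) had eaten the 20% tallow chow alone for the same time, and the control group at 9 months (2 females, 2 males) had eaten a normal chow with 5% tallow. The time 0 group (5 females, 5 males) was sampled at the start of the experiment and carries the control label. All were mini pigs whose cells came from heparinised blood by density gradient centrifugation, and the 22 arrays came from 20 animals, because female 8 and male 25 were sampled both at time 0 and at 9 months on control chow. All values below are log2 RMA intensities, and differences are on the same scale, so that 1 unit is a doubling. They are set side by side within a probe set and not between probe sets.

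Markers of blood cells were read from lists of genes, each compared between conditions and not with another list. All 9 T cell and all 9 monocyte genes passed the filter on dim signals, as did 6 of 8 granulocyte genes, of which S100A9 (mean 8.60) and CHI3L1 (8.57) were bright, while ELANE (5.22) and S100A8 (4.96) were dim. T cell transcripts (9 genes) averaged between 10.35 and 10.83 in the 4 conditions, monocyte transcripts (9 genes) between 8.49 and 8.99, and granulocyte transcripts (8 genes) between 5.77 and 5.94. Array quality measures were not even across conditions. The Affymetrix poly-A spike-ins, foreign transcripts added to each sample before labelling, averaged 8.27 in high-fat with resveratrol, 8.98 in high-fat, 8.31 in control at 9 months and 7.31 at time 0. The gap between the 3′ and the 5′ actin probe sets, which widens when RNA is degraded or copied incompletely, was 1.86, 2.36, 1.95 and 1.42 in the same order. Time 0 females 6 and 10 stood apart from the other time 0 arrays in their spike-ins, and calls on time 0 that changed without them are given below. Because a bulk array reads all cells together, fewer cells of a type and less RNA per cell cannot be told apart in any result below.

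The design of the study names the comparison of the high-fat diet with resveratrol against the high-fat diet alone. None of the 7 genes passed the test: 0 of 10 probe sets did, with limma and Benjamini-Hochberg adjustment over all 17240 probe sets tested, against 0% of all probe sets. The smallest adjusted p among the 10 was 0.807, none had an unadjusted p under 0.05, and 1143 of the 17240 probe sets did. The median difference of the 10 was -0.11, beside 0.02 over all probe sets. TFAM enters this median 4 times, so it does not weigh the 7 genes evenly. The 4 TFAM probe sets, NAMPT and PRKAB1 had negative differences and the 4 sirtuins had positive ones.

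NAMPT measured 10.20 and 9.92 in females 21 and 22 and 9.85 and 10.09 in males 4 and 5 on the high-fat diet with resveratrol. On the high-fat diet alone it measured 10.20 and 10.26 in females 27 and 30 and 9.90 and 10.47 in males 23 and 26. The groups overlapped, and both the highest and the second lowest of these 8 values came from high-fat males. The difference was -0.19 (95% confidence interval -0.52 to 0.13, limma adjusted p = 0.874), from means of 10.01 ± 0.159 with resveratrol and 10.21 ± 0.235 without (SD, n = 4 each).

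PRKAB1 measured 9.28 and 9.29 in the females and 9.17 and 9.32 in the males given resveratrol, against 9.40 and 9.43 in females and 9.18 and 9.31 in males on the high-fat diet alone. All 8 arrays lay between 9.17 and 9.43, with the 2 high-fat females at the top of that range. The difference was -0.06 with an interval from -0.26 to 0.14 (limma adjusted p = 0.947).

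TFAM was read by 4 probe sets, here called a (Ssc_25112_1_S1_at), b (Ssc_27653_1_S1_at), c (Ssc_15920_1_S1_at) and d (Ssc_15920_1_A1_at), with _ written for each point of a probe set name. Probe sets a to c followed each other across the 22 arrays with a Pearson r between 0.93 and 0.96. Probe set d was dim, with values from 4.79 to 6.96, and followed the others less closely (r from 0.57 to 0.63), although c and d were designed from the same sequence record. Probe set b stood lower with resveratrol in every array, at 9.37 and 9.24 in females and 9.12 and 9.40 in males, against 9.58 and 9.55 in females and 9.45 and 9.81 in males on the high-fat diet. Separation of the groups to this degree occurred in 3.81% of all probe sets, 1.97% in this direction, and the difference of -0.32 (interval -0.69 to 0.06) had a limma adjusted p of 0.807. Probe set a, the brightest, differed by -0.16 (interval -0.43 to 0.11) with overlapping groups, c by -0.17 (-0.57 to 0.23) and d by -0.48 (-1.14 to 0.18).

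**Figure D1:**
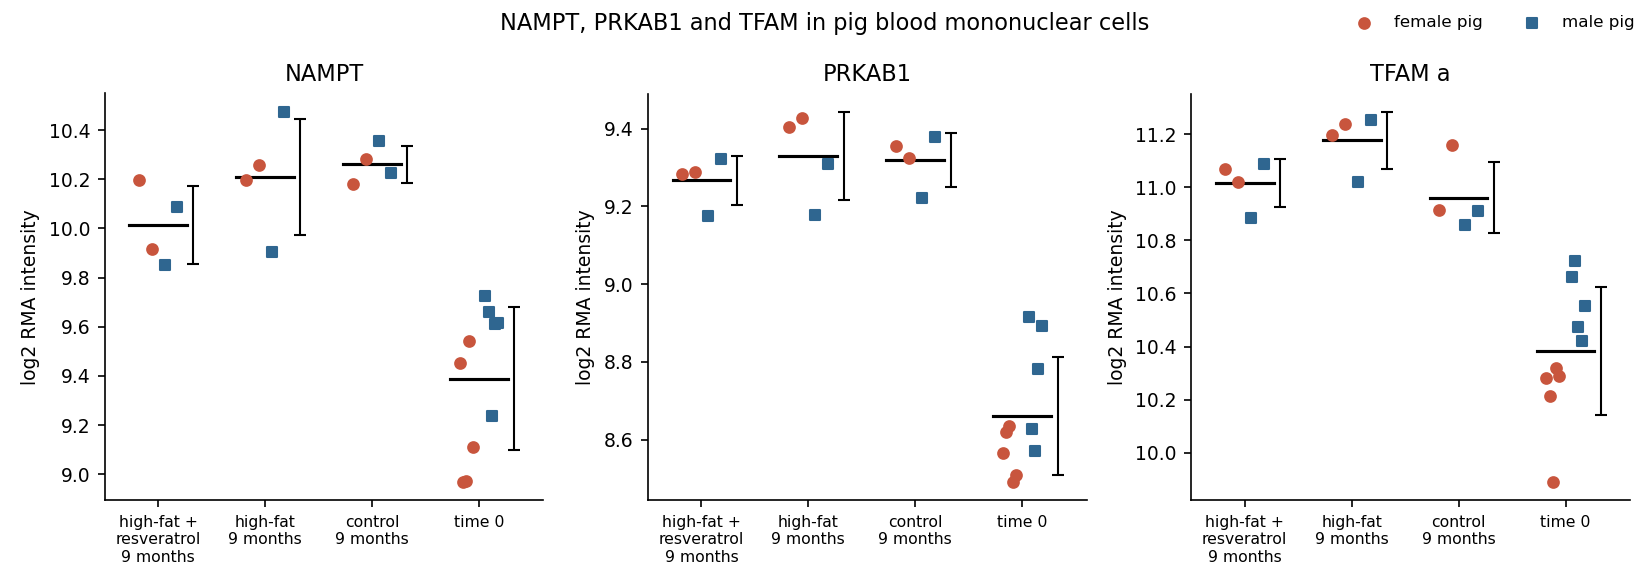
NAMPT, PRKAB1 and TFAM probe set a as log2 RMA intensity (vertical axis) in each array of the 4 conditions (horizontal axis), with circles for females and squares for males. Black lines are group means and bars 1 SD (n = 4, 4, 4 and 10); the 3 diets at 9 months overlap, and every array of 9 months lies above every array of time 0.

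Among the sirtuins, differences between resveratrol and the high-fat diet alone were small. SIRT3, the main deacetylase of the mitochondrial matrix, differed by 0.09 (interval -0.24 to 0.42), and SIRT5, a mitochondrial enzyme that removes succinyl and malonyl groups, by 0.06 (-0.12 to 0.25). SIRT2, a largely cytoplasmic enzyme that deacetylates tubulin, differed by 0.14 (-0.10 to 0.38), and SIRT6, a chromatin-bound enzyme, by 0.15 (-0.05 to 0.34). Adjusted p-values of these 4 in limma ran from 0.836 to 0.956. Each of the 4 had overlapping groups, SIRT6 with values of 6.97 and 6.96 in females and 6.65 and 6.78 in males on resveratrol, against 6.95 and 6.74 in females and 6.53 and 6.55 in males without it. In SIRT6 the sexes stood apart on both diets, with males lower.

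The effect of fat itself was asked by setting the high-fat against the control diet at 9 months. Again 0 of 10 probe sets passed in limma, against 0% of the 17240, where the smallest adjusted p was 0.0996. SIRT2 and SIRT6 had unadjusted p-values under 0.05, as did 1562 of all probe sets, and both were lower on the high-fat diet. The median difference over the 10 was 0.02, beside 0.00 over all probe sets (-0.00453), and TFAM again enters it once for each of its probe sets.

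SIRT2 measured 8.57 and 8.36 in females and 8.10 and 8.37 in males on the high-fat diet, against 8.57 and 8.44 in females and 9.06 and 8.66 in males on control chow. The groups overlapped through the females, which differed little, while the males were apart. The difference was -0.33 (SE 0.117, interval -0.57 to -0.09), with a limma adjusted p of 0.380. Control male 16 had the highest SIRT2 value of all 22 arrays, and without it the difference was -0.20 (adjusted p = 0.842). The difference between the sexes in this diet effect, females minus males, was 0.59 (interval 0.17 to 1.02, adjusted p = 0.397).

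SIRT2 also moved with the actin measure. Across the 22 arrays it fell as the gap between the 3′ and the 5′ actin probe sets widened, with Pearson r = -0.69, and with r = -0.68 after each group's mean was taken out. SIRT5 had r = -0.64 with that gap across the 22 arrays and -0.30 after group means were taken out. SIRT6 had -0.39 and 0.30, and -0.64 among the arrays of 9 months alone. SIRT3 had -0.32 and 0.14. A link with the gap was not limited to the sirtuins: PRKAB1 had 0.49 and 0.43, and NAMPT 0.43 and 0.17. TFAM a had 0.41 and -0.06, b 0.46 and 0.09, c 0.44 and 0.01, and d -0.02 and -0.48. These are descriptions of arrays that share the normalization. Control male 16 had an actin gap of 1.05, and high-fat male 23, with the lowest SIRT2 value, had the widest gap of all, 3.09. With the actin gap as a covariate the diet difference was -0.25 (adjusted p = 0.340) and the sex difference in it 0.32 (adjusted p = 1.00).

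**Figure D2:**
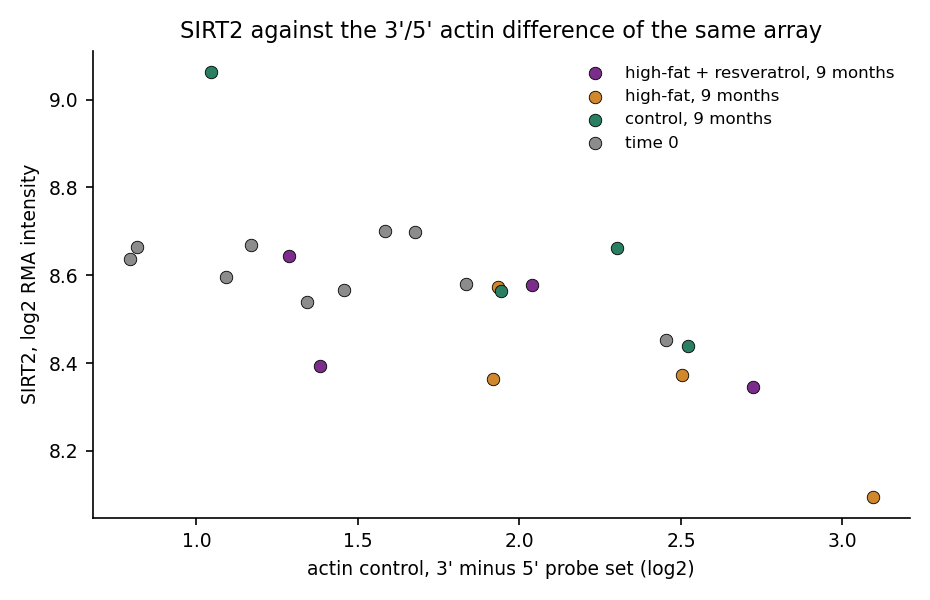
SIRT2 as log2 RMA intensity (vertical axis) against the log2 difference between the 3′ and the 5′ actin probe sets of the same array (horizontal axis), 1 point per array, coloured by condition. The control array at 9.06 lies at a gap of 1.05 and the high-fat array at 8.10 at a gap of 3.09.

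SIRT6 measured 6.95 and 6.74 in females and 6.53 and 6.55 in males on the high-fat diet, against 6.91 and 6.98 in females and 6.93 and 6.82 in males on control chow. High-fat female 27 lay among the control values and the other high-fat arrays lay below them. The difference was -0.22 (SE 0.0931, interval -0.41 to -0.02, limma adjusted p = 0.485).

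The 4 TFAM probe sets had positive differences between the high-fat and the control diet, none of which passed: 0.22 for a (interval -0.05 to 0.48), 0.28 for b, 0.29 for c and 0.46 for d, with limma adjusted p-values from 0.671 to 0.729. Their size depended on single arrays: leaving out 1 array gave 0.16 to 0.31 for a, 0.14 to 0.40 for b, 0.07 to 0.45 for c and 0.19 to 0.77 for d. The lowest values of a, b and c were those without control male 16, and that of d the one without control male 25. For probe set b, the high-fat arrays measured 9.58 and 9.55 in females and 9.45 and 9.81 in males, against 9.55 and 9.59 in females and 9.00 and 9.15 in males on control chow. Females on both diets lay between 9.55 and 9.59, and both control males were lower than every other of these arrays. The sex difference in the effect, females minus males, was -0.56 for b (interval -1.07 to -0.05, adjusted p = 0.411), -0.55 for c, -0.07 for a and 0.15 for d, so that the 4 probe sets did not share a size or a sign. NAMPT (-0.05, interval -0.38 to 0.27) and PRKAB1 (0.01, interval -0.19 to 0.21) had the differences closest to 0 of the non-sirtuin members.

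Set against control chow, the high-fat diet with resveratrol again moved 0 of 10 probe sets past the threshold (0% of all, smallest adjusted p 1.00 in limma, 664 probe sets with an unadjusted p under 0.05). NAMPT had the largest difference of the 10, -0.25 (interval -0.57 to 0.08, adjusted p = 1.00), with 10.20, 9.92, 9.85 and 10.09 on resveratrol against 10.18 and 10.28 in females and 10.36 and 10.22 in males on control chow. Only resveratrol female 21 reached the control range. PRKAB1 differed by -0.05, TFAM a by 0.05, SIRT2 by -0.19, SIRT3 by 0.12, SIRT5 by -0.03 and SIRT6 by -0.07. The 3 diet comparisons share their arrays in pairs, so their differences are not independent of each other. No member passed in the test of a sex difference in the resveratrol effect (0.0116% of all probe sets did) or in the high-fat effect (0.00580%).

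**Figure D3:**
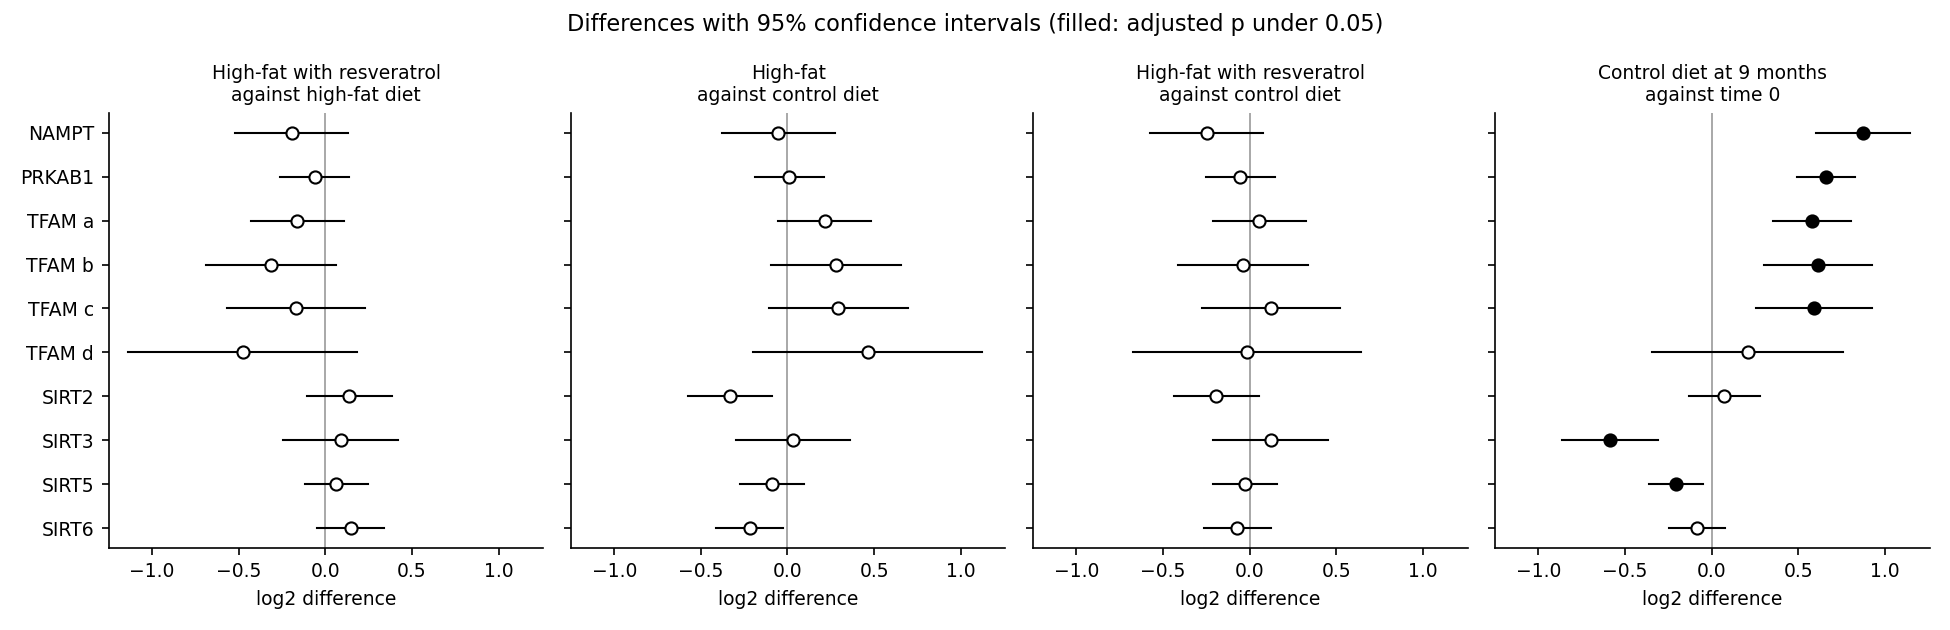
Log2 difference (horizontal axis) with its 95% confidence interval for each of the 10 probe sets (vertical axis) in the 3 diet comparisons and the comparison of times. Filled points have a limma adjusted p under 0.05: there are none between diets and 7 of 10 between times.

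Between time 0 and 9 months on control chow these genes moved. Of the 10 probe sets, 7 passed in limma, against 35.0% of all probe sets, so that a call by itself says little here. NAMPT, PRKAB1 and TFAM rose (5 probe sets, 15.8% of all rose), and SIRT3 and SIRT5 fell (19.1% of all fell). SIRT2 and SIRT6 did not pass. The median difference of the 10 was 0.39, beside -0.01 over all probe sets. TFAM enters this median once for each of its probe sets, so it does not weigh the genes evenly or show a rise of the set as a whole. Pigs were older by the whole length of the study at the second sampling, and age, time on study and any difference in the running of the arrays cannot be told apart.

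NAMPT measured 10.18 and 10.28 in females and 10.36 and 10.22 in males at 9 months on control chow. At time 0 it ran from 8.97 to 9.73 with a median of 9.50. No array of time 0 reached the 9-month arrays. NAMPT rose by 0.87 (SE 0.131, interval 0.60 to 1.14), a 1.83-fold higher level, with a limma adjusted p of 4.91e-05. The order of its means was control at 9 months (10.26), high-fat (10.21), high-fat with resveratrol (10.01) and time 0 (9.39), and of the neighbours in that order the last pair alone stood clear of each other.

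PRKAB1 measured 9.36 and 9.32 in females and 9.22 and 9.38 in males at 9 months, against a range from 8.49 to 8.91 with a median of 8.62 at time 0. It rose by 0.66 (SE 0.0803, interval 0.49 to 0.83), 1.58-fold, with a limma adjusted p of 5.51e-06, the smallest among the 10. The groups did not overlap. Separation in this direction between these groups occurred in 6.54% of all probe sets.

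TFAM a measured 10.91 and 11.16 in females and 10.86 and 10.91 in males at 9 months, against 9.89 to 10.72 with a median of 10.37 at time 0. It rose by 0.58 (SE 0.108, limma adjusted p = 0.000369). Probe set b rose by 0.61 (adjusted p = 0.00356) and c by 0.59 (adjusted p = 0.00752), and the call of c was lost without control female 18 (0.43, adjusted p = 0.0547). Probe set d differed by 0.21 (adjusted p = 0.577). For NAMPT, PRKAB1 and TFAM a, all 12 arrays of 9 months, whatever the diet, lay above all 10 of time 0, which held for 3.35% of all probe sets.

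SIRT3 measured 7.68 and 7.31 in females and 7.15 and 7.82 in males at 9 months, against a range from 7.66 to 8.44 with a median of 8.13 at time 0. Control male 25 and control female 18 lay inside the time 0 range. SIRT3 fell by 0.58 (SE 0.133, interval -0.86 to -0.31), to 0.667 times the time 0 level, with a limma adjusted p of 0.00203. On the high-fat diet with resveratrol it measured 7.70 and 7.53 in females and 7.64 and 7.56 in males, and on the high-fat diet 7.57 and 7.48 in females and 7.35 and 7.69 in males.

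SIRT5 measured 7.64 and 7.53 in females and 7.75 and 7.70 in males at 9 months, against 7.65 to 8.04 with a median of 7.88 at time 0. It fell by 0.21 (SE 0.0739, limma adjusted p = 0.0353). That call was kept in 16 of 25 other settings, and among the arrays left out it was lost without control female 8 (-0.15, adjusted p = 0.167), control female 18 (-0.19, adjusted p = 0.0903), or any 1 of time 0 female 10 and males 11, 12 and 15 (adjusted p from 0.0507 to 0.0551). SIRT2 (0.07, interval -0.13 to 0.28) and SIRT6 (-0.08, interval -0.25 to 0.08) had intervals that hold 0.

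**Figure D4:**
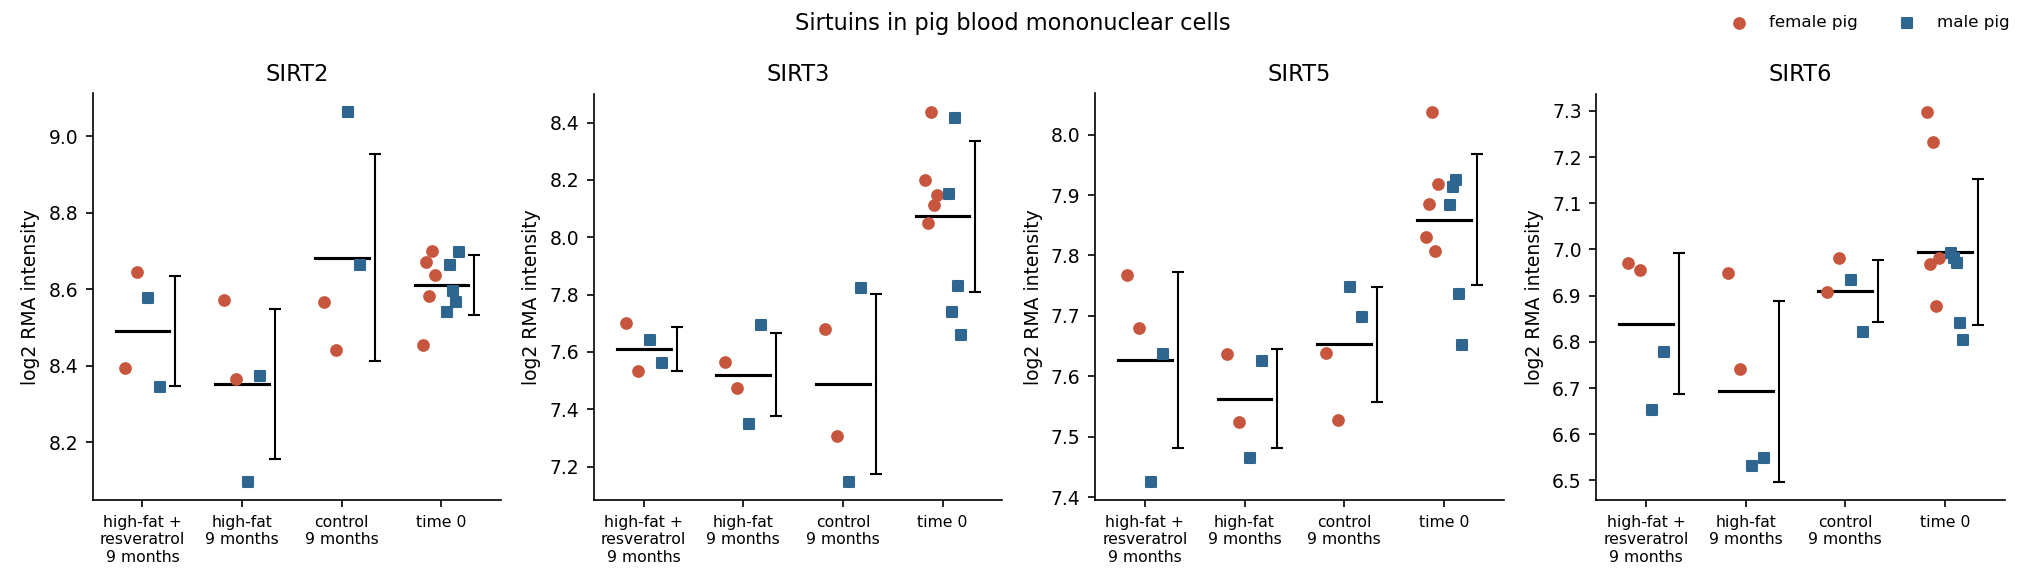
SIRT2, SIRT3, SIRT5 and SIRT6 as log2 RMA intensity (vertical axis) in each array of the 4 conditions (horizontal axis), with circles for females and squares for males. Black lines are group means and bars 1 SD (n = 4, 4, 4 and 10); SIRT3 and SIRT5 have their highest means at time 0 (8.07 and 7.86), and SIRT2 and SIRT6 their lowest on the high-fat diet (8.35 and 6.69).

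Array measures and part of the cell markers moved over the same interval. Over all probe sets, 15.8% were higher and 19.1% lower at 9 months on control chow. Counts of a few genes near these shares say little by themselves. Of 9 T cell genes, 5 were lower at 9 months on control chow and 0 higher, and their mean ran from 10.27 to 10.46 at 9 months against 10.64 to 11.00 at time 0. Of 9 monocyte genes, 2 were higher and 0 lower. Their mean ran from 8.88 to 9.20 at 9 months against 8.35 to 9.08 at time 0, so these ranges overlapped. All 4 erythroid genes were lower (means from 7.93 to 9.55 at 9 months against 9.10 to 11.04 at time 0), 2 of 4 NK and cytotoxic genes and 1 of 2 B cell genes were lower, and 0 of the 6 granulocyte genes above the filter and 0 of 6 platelet genes passed in either direction. NAMPT had r = 0.06 with the monocyte mean across the 22 arrays and r = -0.68 with the T cell mean, or -0.15 once group means were taken out. Other members also ran with or against the T cell mean: PRKAB1 (-0.73), TFAM a (-0.61), SIRT3 (0.65) and SIRT5 (0.73). Once group means were taken out, these were 0.00, 0.27, 0.19 and 0.29. SIRT2 (0.24), SIRT6 (0.50) and TFAM b, c and d (-0.53, -0.54 and -0.16) followed it less. Poly-A spike-ins averaged 8.31 at 9 months on control chow and 7.31 at time 0, and the actin gap 1.95 and 1.42. The part of the cell mix in the change of the 5 genes was not tested. With the spike-in level or the actin gap as a covariate, NAMPT, PRKAB1, SIRT3 and TFAM a, b and c kept their calls. SIRT5 kept its call with the spike-in level and lost it with the actin gap (-0.17, adjusted p = 0.0785). Without time 0 females 6 and 10, SIRT5 lost its call too (-0.19, adjusted p = 0.0564), and the other 6 probe sets kept theirs.

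Both female 8 and male 25 were sampled at both times. In female 8, NAMPT was 10.28 at 9 months against 8.97 at time 0, PRKAB1 9.32 against 8.62, TFAM a 11.16 against 10.21 and SIRT3 7.31 against 8.05. In male 25, NAMPT was 10.22 at 9 months against 9.62 at time 0, PRKAB1 9.38 against 8.89, TFAM a 10.91 against 10.55 and SIRT3 7.82 against 7.66. NAMPT, PRKAB1 and TFAM a were thus higher at 9 months in both animals, and SIRT3 was lower in female 8 and higher in male 25. SIRT5 likewise differed by -0.36 in female 8 and by 0.05 in male 25. The other TFAM probe sets differed by 1.01 (b), 0.82 (c) and 1.09 (d) in female 8, and by 0.03 (b), 0.33 (c) and -0.99 (d) in male 25.

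When the sexes were taken apart, a step chosen after the data had been seen, females changed in 7 of 10 probe sets (24.7% of all probe sets) and males in 2 of 10 (20.8%). With 2 control arrays a sex, these counts depended on single arrays. The count in males was 4 without control male 25, where SIRT3 (-0.81, adjusted p = 0.0197) and SIRT2 (0.45, adjusted p = 0.0315) passed too, and 1 without control male 16. SIRT3 in males also passed with the spike-in level as a covariate (-0.86, adjusted p = 0.00886), and SIRT2 with the actin gap (0.33, adjusted p = 0.0264). The count in females was 5 without control female 8. Over all probe sets, 3587 calls in males became 1077 without control male 16 and 1622 with array weights, and 4253 in females became 1770 without control female 8. NAMPT rose by 1.02 in females (limma adjusted p = 0.000515) and by 0.72 in males (adjusted p = 0.00824), and PRKAB1 by 0.78 (adjusted p = 4.24e-05) and 0.54 (adjusted p = 0.00126). The NAMPT call in males was lost without control male 16 (0.65, adjusted p = 0.106), with the spike-in level as a covariate (0.61, adjusted p = 0.0692) and with array weights (0.71, adjusted p = 0.0503). TFAM a, b and c rose by 0.84, 1.12 and 1.13 in females, with adjusted p-values from 4.41e-05 to 0.000127, and had differences of 0.32, 0.11 and 0.05 in males, none past the threshold. The test of the difference itself called 0 of 17240 probe sets (0%) and 1843 had an unadjusted p under 0.05. In that test TFAM b differed between the sexes by 1.02 (SE 0.203, limma adjusted p = 0.106), c by 1.08 (adjusted p = 0.106) and a by 0.52 (adjusted p = 0.253), and without control male 25 the difference of c was 1.35 (adjusted p = 0.0406). SIRT3 in females lost its call without control female 8 (-0.51, adjusted p = 0.219), and without time 0 females 6 and 10 (-0.61, adjusted p = 0.0526). The SIRT5 call in females was kept in 12 of 17 other settings and lost without those 2 females (-0.29, adjusted p = 0.0604), control female 8 (-0.26, adjusted p = 0.236), control female 18 (-0.37, adjusted p = 0.0646) or time 0 female 10 (-0.28, adjusted p = 0.0539), and with the actin gap (-0.27, adjusted p = 0.0641). Without females 6 and 10, TFAM a in males passed (0.32, adjusted p = 0.0355), as it did with quantile normalization (0.37, adjusted p = 0.0457). TFAM d differed by 0.73 in females (adjusted p = 0.111) and by -0.32 in males (adjusted p = 0.516). In females d passed with the actin gap as a covariate (1.01, adjusted p = 0.0281), and its difference ran from 0.13 to 1.34 when arrays were left out.

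The sexes were also compared at time 0. There 2 of 10 probe sets passed, both TFAM and both lower in females, against 1.07% of all probe sets (0.574% lower). Both read the same gene and followed each other across the arrays (r = 0.95), so they are not separate results. By the brightest probe set of each gene, 0 of 7 genes passed. TFAM b measured 8.51, 8.58, 8.13, 8.59 and 8.43 in females 6, 8, 10, 17 and 20, against 9.16, 9.02, 8.72, 8.82 and 9.12 in males 11, 12, 15, 24 and 25. No female reached a male. The difference was -0.52 (SE 0.109, limma adjusted p = 0.0343), and that of c was -0.54 (adjusted p = 0.0428). Probe sets a (-0.37, adjusted p = 0.0575) and d (-0.86, adjusted p = 0.0922) were also separated without overlap but did not pass. Separation of this kind, lower in females, occurred in 1.51% of all probe sets.

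Time 0 females 6 and 10 stood apart in the spike-ins, at 8.28 and 8.32 against 6.99 to 7.18 in the other 3 females and 6.96 to 7.20 in the 5 males. The 2 highest SIRT6 values of time 0 (7.30 and 7.23) were those of females 6 and 10. Without those 2 females, an alternative chosen after the data had been seen, TFAM b differed by -0.43 (adjusted p = 0.183) and c by -0.38 (adjusted p = 0.245), and 0 of 10 probe sets passed. With the spike-in level as a covariate, b differed by -0.53 (adjusted p = 0.0711) and c by -0.55 (adjusted p = 0.0924). The call of b was also lost without female 10 or any 1 of males 11, 12 and 25 (differences from -0.51 to -0.44, adjusted p from 0.0855 to 0.107). The call of c was lost without any of these 4 arrays, female 6 or male 15. Probe set a passed in 5 of 20 other settings. These were the fits without female 17 (-0.40, adjusted p = 0.0448) and without female 20 (-0.39, adjusted p = 0.0483), and 3 changes of processing. The latter were another pseudocount (-0.36, adjusted p = 0.0496), a stricter filter on dim signals (-0.37, adjusted p = 0.0413) and a trend in the variance (-0.37, adjusted p = 0.0449).

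NAMPT at time 0 measured 9.45, 8.97, 8.97, 9.54 and 9.11 in females against 9.73, 9.66, 9.24, 9.61 and 9.62 in males, and the groups overlapped. Its difference was -0.36 (limma adjusted p = 0.186) and that of PRKAB1 -0.19 (adjusted p = 0.207). No sirtuin passed, with differences of 0.00 for SIRT2 (-0.00416), 0.23 for SIRT3, 0.07 for SIRT5 and 0.15 for SIRT6.

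At 9 months, over the 3 diets, 0 of 10 probe sets differed between the sexes in limma, against 6.01% of all probe sets. The TFAM differences were between 0.09 and 0.16, now with females on the higher side, and none passed. SIRT6 had the smallest p: females measured 6.97, 6.96, 6.95, 6.74, 6.91 and 6.98, against 6.65, 6.78, 6.53, 6.55, 6.93 and 6.82 in males, listed from high-fat with resveratrol through high-fat to control. Both control males and resveratrol male 5 lay inside the range of the females. The difference was 0.21 (interval 0.05 to 0.37, limma adjusted p = 0.114).

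**Figure D5:**
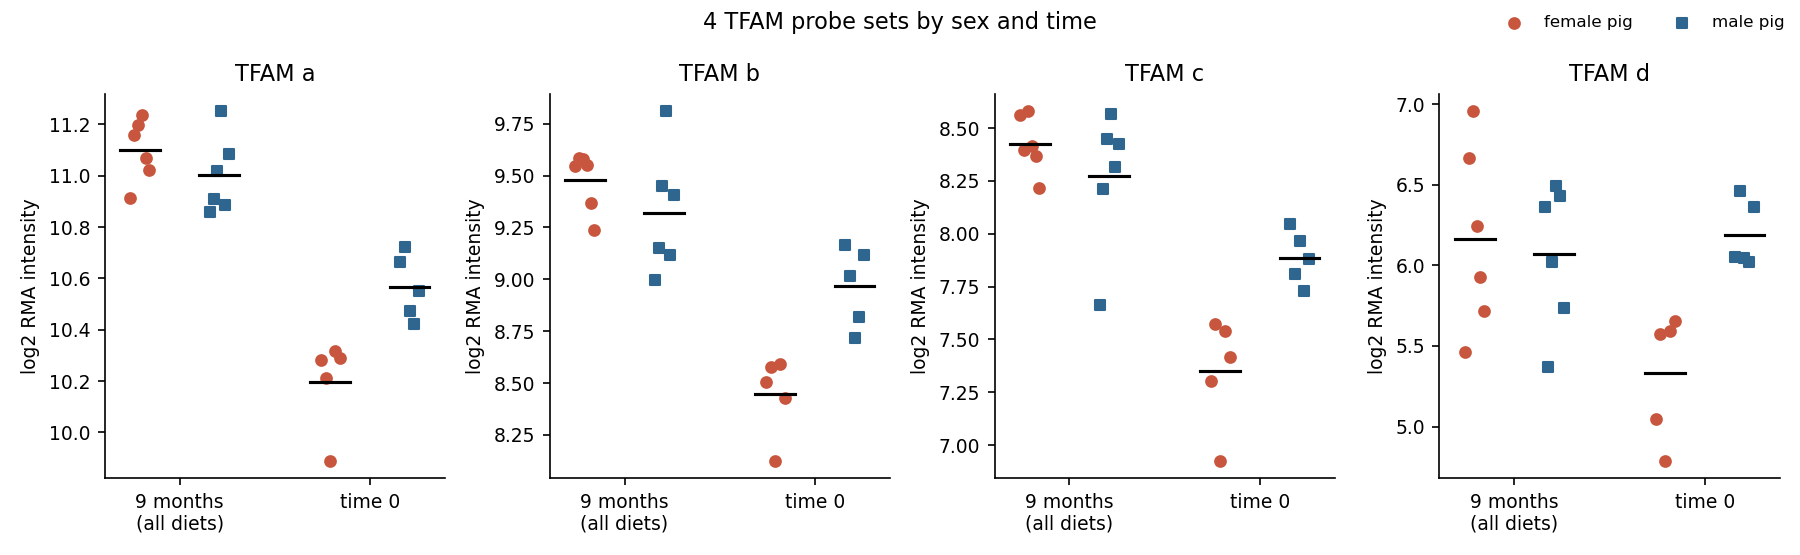
The 4 TFAM probe sets as log2 RMA intensity (vertical axis) in females (circles) and males (squares) at 9 months over all 3 diets (6 arrays a sex) and at time 0 (5 arrays a sex), with black lines for means. At time 0 the females lie below the males in each probe set, from -0.37 for a to -0.86 for d; at 9 months the sexes overlap.

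Among 53 measured genes of 6 related lists (NAD synthesis, NAD consumers, the AMPK pathway, sirtuin partners, mitochondrial DNA maintenance and other reported resveratrol targets), 0 passed in any of the 3 diet comparisons in limma. The smallest unadjusted p-values for resveratrol against the high-fat diet were those of NNT, the mitochondrial transhydrogenase (-0.37, interval -0.63 to -0.10, adjusted p = 0.728), PDE3A, a phosphodiesterase (-0.21), and ATG7, which drives autophagy (0.23). PDE3A was dim, with means of 4.69 on resveratrol and 4.90 on the high-fat diet, below the log2 level of 5 that the filter asked for in 2 arrays, so its difference may not be a measured one. For high-fat against control chow they were NQO2, a quinone reductase that binds resveratrol (-0.41, interval -0.74 to -0.08, adjusted p = 0.426), TBC1D1, an AMPK substrate (-0.24), and CPS1, a urea cycle enzyme that SIRT5 deacylates (-0.23), also dim (4.94 on the high-fat diet against 5.17 on control chow). For resveratrol against control chow they were NMNAT3, which makes NAD in mitochondria (-0.29), NQO2 (-0.33) and NNT (-0.24).

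Between time 0 and 9 months on control chow 9 of the 53 rose and 10 fell, or 35.8% against 35.0% of all probe sets. In the NAD synthesis list 2 of 7 fell: NAPRT, the enzyme that makes NAD from nicotinic acid (-0.63, limma adjusted p = 0.00873), and NNT (-0.57, adjusted p = 0.000427). NAMPT thus rose while NAPRT fell. Among the 6 NAD consumers, 1 fell, the NAD hydrolase CD38 (-0.72, adjusted p = 0.000136), whose level was 7.47 at 9 months against 8.20 at time 0.

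Over all probe sets, 15.8% rose and 19.1% fell, to be set beside the counts of these short lists. In the AMPK list 4 of 13 rose and 3 fell. The catalytic subunit gene PRKAA1 rose by 0.48 (limma adjusted p = 0.00268). The other 6 lie outside the rule for named genes and were added after their values were seen: TSC1 (0.37), PRKAB2 (0.33) and PRKAG1 (0.24) rose, and MAP3K7 (-0.37), STRADB (-0.33) and STK11 (-0.32) fell. PRKAB2 and PRKAG1 encode AMPK subunits, STK11 and MAP3K7 are kinases upstream of AMPK, STRADB is a partner of STK11, and TSC1 is part of a complex that restrains mTOR. Of the sirtuin partners 2 of 10 fell, among them RPS19BP1, known as an activator of SIRT1 (-0.58, adjusted p = 5.61e-05). Of 4 genes of mitochondrial DNA maintenance, 1 rose and 1 fell. The one that fell was TFB1M, a mitochondrial ribosomal RNA methyltransferase (-0.64, adjusted p = 3.96e-05), opposite in direction to TFAM. Of 13 other reported targets 4 rose and 1 fell: HMOX1 (0.68, adjusted p = 0.0259), PDE4B (0.66) and NQO2 (0.64) were among those that rose, and the lipoxygenase ALOX15 fell (-0.65, adjusted p = 0.0477). The ALOX15 call was kept in 9 of 25 other settings and the HMOX1 call in 21 of 25, being lost with array weights, with the actin gap as a covariate, and without control female 8 (0.64, adjusted p = 0.0715) or control male 16 (0.48).

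Between the sexes at time 0 none of the 53 genes passed in limma, and at 9 months 3 did, or 5.66% against 6.01% of all probe sets. ALOX15 was higher in females (6.89 against 5.81 in males, difference 1.07, adjusted p = 0.00254), as was PPARD (0.32, adjusted p = 0.0488), and KYNU, an enzyme of NAD synthesis from tryptophan, was lower in females (7.83 against 8.47 in males, -0.64, adjusted p = 0.0164). Cell marker means of the sexes at 9 months are given as a description, from 2 arrays per sex and diet and without a test. The T cell and B cell means were higher in females on each diet, the platelet mean was lower, and the NK and cytotoxic mean was mixed. The monocyte, granulocyte and erythroid means were lower in females on each diet, with overlapping arrays on control chow. The monocyte mean was 8.29 in females against 9.10 in males on resveratrol, 8.29 against 8.69 on the high-fat diet and 8.93 against 9.05 on control chow. The granulocyte mean was 5.30 in females against 6.23 in males on resveratrol, 5.58 against 5.95 on the high-fat diet and 5.85 against 6.02 on control chow. The erythroid mean was 8.17 in females against 9.95 in males on resveratrol, 8.33 against 10.24 on the high-fat diet and 8.50 against 9.16 on control chow. Their part in the sex differences of these genes and of SIRT6 was not tested. The PPARD call was kept in 7 of 22 other settings and the KYNU call in 17 of 22, with the KYNU call lost without any 1 of resveratrol male 5, high-fat female 30, control female 8 and control male 25.

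The genes whose values ran most like each member were found by Pearson r over the 22 arrays among 5904 other genes, given as a description, since all arrays share the step between time 0 and 9 months. NAMPT ran most like GLA (r = 0.95, and 0.82 once group means were taken out), ODC1 (0.95 and 0.76) and JOSD1 (0.94 and 0.84). PRKAB1 ran most like SLC38A1 (0.96), with 0.64 inside groups, while RLIM, the next gene, had 0.94 over all arrays and 0.12 inside groups. TFAM a ran most like HSPA5 (0.97 and 0.82) and SMARCA5 (0.97 and 0.76). For the sirtuins the closest genes were TWF2 for SIRT2 (0.85 and 0.76), IFI35 for SIRT3 (0.91 and 0.75), POLR1A for SIRT5 (0.93 and 0.74) and SIDT2 for SIRT6 (0.88 and 0.82). Between the members themselves, NAMPT and TFAM a had r = 0.92, and 0.66 once group means were taken out. NAMPT and PRKAB1 had 0.90, and 0.24 once group means were taken out. SIRT3 and SIRT5 had 0.78 and 0.50.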

How the data were processed

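Gene expression in peripheral blood mononuclear cells was measured on 22 Affymetrix porcine arrays. The authors deposited RMA intensities, not log-transformed, with 1 value for every probe set on every array. GCOS, RMA and Affymetrix Expression Console 1.1 are named per the submitters' processing notes, and raw scans were not used here. The log2 of each intensity was taken after a floor of 1. Of 24123 probe sets 124 controls were left out, and of the remaining 23999, 10069 had 1 symbol, 198 several and 13732 none in the platform's annotation. All 7 members matched a pig gene table by Entrez ID, and no genome build was needed. Probe sets with a log2 value above 5 in 2 or more arrays were tested, 17240 in all (71.8%).

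Diets and times were compared with limma 3.58.1 in R 4.3.3 on all 22 arrays, with condition and sex in the model, and sexes and sex differences on 8 group means. Tests were two-sided, adjusted by Benjamini-Hochberg over all probe sets tested, at a threshold of 0.05, with 95% confidence intervals. Group means and SDs are of log2 values. The number of arrays limits the precision. The computations were tested on simulated data.

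Pigs 8 and 25 were sampled at both times, per the labels. Their group-centred profiles correlated at -0.056 and 0.199. Their best match among other time 0 pigs of their sex was 0.348 and 0.198, so the pairing is taken from the labels alone. The labels give every other sample as a separate pig.

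All members were described. From the 6 related lists, the genes past the threshold were named (at most 10 a comparison, by size of difference), and in a diet comparison the 3 with the smallest p. Of a gene's probe sets the brightest was used. The 7 marker lists were averaged per array. Members, lists and fits were chosen with earlier results of these data known. Alternatives were another pseudocount, other filters, quantile normalization, array weights, other sample sets, the pig as a block, the spike-in level and the actin gap as covariates, a trend in the variance, and each array left out in turn.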

Additional observations from a re-analysis of the deposited data

Results flagged for a closer look

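Of 60 groups of 4 to 10 arrays, each of 1 probe set, tested for a single distant array, 2 held one, where chance alone flags about 1 in 20. NAMPT in time 0 male 15 measured 9.24, while the other 4 males of that group lay between 9.61 and 9.73. TFAM probe set a in time 0 female 10 measured 9.89, while the other 4 females lay between 10.21 and 10.32. Female 10 is also 1 of the 2 time 0 females with high spike-in levels.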

How the results depend on the processing

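Over 12 alternative settings and 22 fits that left out 1 array each, 2109 of 2158 values of the members kept their side of the threshold, 35 lost a call, 14 gained one, and none with a call changed sign; 103 values without a call did. The member count between time 0 and 9 months was 5 to 7 when arrays were left out. Between the sexes at time 0 the count of 2 became 0 with the spike-in covariate, 1 with the actin covariate, 0 without females 6 and 10, and 0 to 3 when arrays were left out. It was 0 without female 10 or male 11, 12 or 25. With the pig as a replicate block (consensus correlation -0.176), no call of a member changed, and SIRT2 between high-fat and control chow had -0.34 (adjusted p = 0.367). Over all probe sets, high-fat against control called 0, but 68 with array weights, 18 with 8 group means and 18 without control female 8. Females against males at time 0 called 184, but 56 with the spike-in covariate and 28 without females 6 and 10, and at 9 months 1036 against 602 with the actin covariate. The causes were not tested. With 4 arrays a diet, standard errors from 0.0884 (SIRT5) to 0.317 (TFAM d) limit what a diet comparison can show.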
